A study of Mus musculus with 2 samples.

Results

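The cells described here were tumour-infiltrating CD8 T cells that carried transcripts of the egress receptor S1pr1 and its activator Klf2, many transcripts of the chemokine Ccl5, and none of Pdcd1, Mki67 or Top2a. Members were chosen by their measured transcripts: a barcode entered this gate when it held at least 500 detected genes, under 10% mitochondrial UMIs (unique molecular identifiers, counted as transcripts), a UMI of a CD3 gene (Cd3d, Cd3e or Cd3g), a UMI of Cd8a or Cd8b1, a UMI of S1pr1, a UMI of Klf2, at least 10 UMIs of Ccl5, and no UMI of Pdcd1, Mki67 or Top2a. The gate held 175 cells of the NK-depleted library and 244 cells of the control library, 419 of 15065 CD3+CD8+ barcodes and of 17977 deposited barcodes. Their working name, S1pr1 Klf2 Ccl5-high memory-like, describes those thresholds and not a cluster.

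MC38 tumours, grown from a mouse colon carcinoma line, were digested with collagenase 9 days after implantation, and viable CD8+ cells were isolated on a cell sorter and profiled by droplet single-cell RNA sequencing with 5' chemistry. The NK-depleted library came from wild-type (WT) mice given an antibody to NK1.1, a receptor of mouse NK cells, and the control library came from WT mice labelled PBS, whose library name reads CD8Iso. Both groups share the genotype, tumour line, day and sort, and how many mice each contains is not stated in the labels used here. NK1.1 is also carried by NKT cells and some other T cells, so the antibody can reach more than NK cells. Each group is 1 library, so no test was possible: differences between the libraries hold for these 2 libraries, and the intervals given are 95% intervals for counting error only.

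S1PR1 lets T cells follow sphingosine 1-phosphate out of tissue into blood and lymph; Klf2 is a transcription factor that keeps S1pr1 and other recirculation genes switched on. Strong T cell receptor signalling lowers Klf2, and CD69 holds S1PR1 off the surface, which keeps cells in tissue. Naive T cells carry S1pr1 and Klf2 with almost no Ccl5, whereas memory and effector CD8 T cells store Ccl5 transcripts. Transcripts of these genes in the same cell are therefore read as a mark of memory-like cells able to recirculate. Whether the gated cells had met antigen was not measured.

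**Figure D1:**
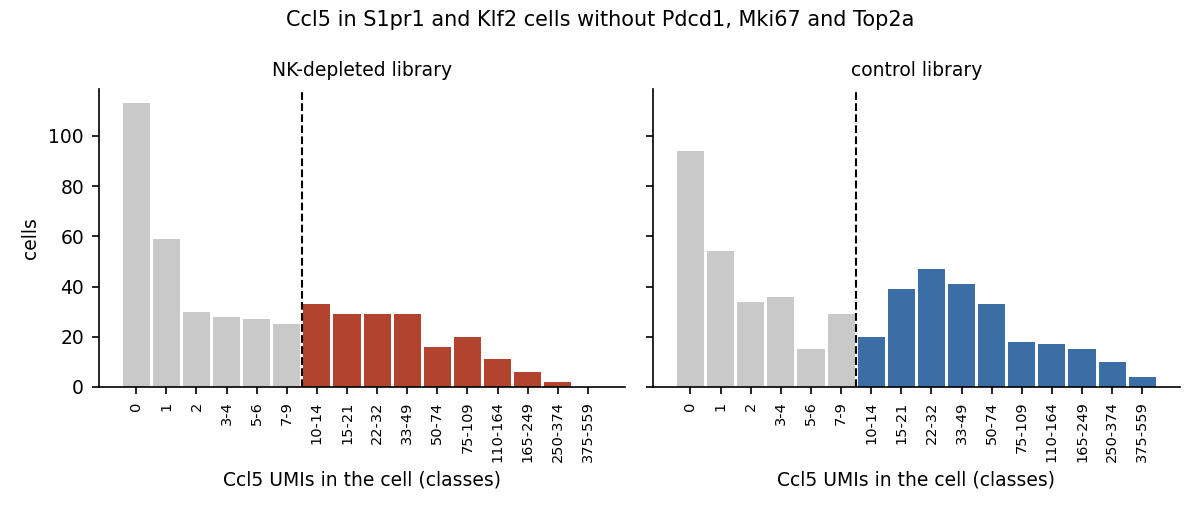
Number of S1pr1+ Klf2+ CD3+CD8+ cells without Pdcd1, Mki67 or Top2a (y axis) by class of Ccl5 UMIs in the cell (x axis, classes widening to the right), with the NK-depleted library left and the control library right; bars right of the dashed line, coloured, are the gated cells. Cells with at most 2 Ccl5 UMIs number 202 in the NK-depleted library and 182 in the control library, against 175 and 244 cells at or above the line.

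The steps of the gate show where cells were lost. S1pr1 and Klf2 were found together in 1187 CD3+CD8+ barcodes of the NK-depleted library and 1100 of the control library, and 594 and 706 of these held at least 10 Ccl5 UMIs. Of those, 292 NK-depleted and 373 control cells had a UMI of Pdcd1, an inhibitory receptor, and 332 and 326 had a UMI of Mki67 or Top2a, which mark dividing cells. Most Ccl5-high cells with both egress transcripts therefore fell outside the gate through a UMI of Pdcd1, Mki67 or Top2a. Inside it, the median cell held 31 Ccl5 UMIs in the NK-depleted library (range 10 to 314) and 37.5 in the control library (range 10 to 503), with medians of 2 S1pr1 UMIs in each and 4 and 5 Klf2 UMIs. Cells just inside the Ccl5 threshold (10 to 14 UMIs) numbered 33 and 20, and cells just outside it (5 to 9 UMIs) 52 and 44. Tcf7, a transcription factor gene of memory cells, stood at 275 and 367 CPM (UMIs of a gene per 1e6 UMIs of the set) just inside, in NK-depleted and control cells, and at 334 and 313 CPM just outside. Gzmb, a granule protease gene, stood at 813 and 220 CPM just inside and at 317 and 237 CPM just outside, and Klf3 at 102 and 97.8 CPM just inside and at 142 and 205 CPM just outside. These values are given without a test; the plot of Ccl5 UMIs per cell shows no gap at the threshold.

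Gated cells made up 2.14% (1.84 to 2.48) of CD3+CD8+ barcodes in the NK-depleted library and 3.54% (3.11 to 4.0) in the control library. Among CD3+CD8+ cells without Pdcd1, Mki67 and Top2a the shares were 10.8% (9.37 to 12.5) of 1613 NK-depleted cells and 16.2% (14.4 to 18.2) of 1506 control cells. Both pairs of intervals are exact binomial intervals for counting error only. With 1 library per group they do not cover spread between samples or mice. Depth enters any gate on UMIs: the gated cells had a median of 8701 UMIs in the NK-depleted library and 9785 in the control library, against 12421 and 11571 in the other CD3+CD8+ cells. With every cell thinned to 5500 UMIs before gating, the shares were 1.37% (1.11 to 1.66) in the NK-depleted and 2.73% (2.34 to 3.16) in the control library, from 100 and 169 cells. Ccl5 itself was lower in the NK-depleted library in the other cells too (1073 CPM against 2915 CPM in control), and the part of this in the gate shares was not tested. The libraries shared 391 barcode sequences; 0 gated NK-depleted cells and 1 gated control cell had a barcode also present in the other library.

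The deposited matrices hold 128853437 UMIs over 10111 barcodes in the NK-depleted library and 108106687 UMIs over 7866 barcodes in the control library, and the summed UMIs of the gated cells were 1709973 and 2659050. The sorted cell type was checked on its markers: Cd8a, used by the rule, stood at 398 and 457 CPM in NK-depleted and control gated cells, and Cd4 and the NK receptor gene Ncr1 were at 0 in both (0 UMIs allow up to 3 UMIs in each sum). The 8 NK cell markers summed to 213 CPM in NK-depleted and 179 CPM in control gated cells, against 202 and 183 CPM in the other cells. Gamma delta T cell markers summed to 120 and 128 CPM in gated cells and 57.7 and 31.5 CPM in the other cells. Trdc, the delta chain constant gene, reached 3 UMIs in 4 NK-depleted and 5 control gated cells. These were 2.29% and 2.05% of gated cells, against 0.713% and 0.225% of the other cells. B cell markers summed to 133 and 130 CPM in gated cells, nearly all of it Ighm (120 and 119 CPM), with Cd79a and Ms4a1 at 0. Macrophage markers summed to 21.1 and 19.9 CPM and dendritic cell markers to 90.6 and 222 CPM in gated cells, against 385 and 533 CPM for the dendritic cell markers in the other cells. The median mitochondrial share was 3.81% and 3.42% in gated cells and 2.78% and 2.23% in the other cells.

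Because the gate used these cells' own transcripts, every comparison of gated with other cells is a description. At a threshold of 1.5-fold in both libraries and 50 CPM, 141 of 3212 genes (4.39%) were higher in gated cells and 430 (13.4%) lower than in the other CD3+CD8+ cells. For gene lists, a lower threshold was used, a log2 ratio of 0.32 and 10 CPM, which 10.9% of 8019 genes passed upward and 24.6% downward; the median log2 ratio over all genes was -0.13. Ratios of summed UMIs cannot tell a larger share of positive cells from more transcripts per cell.

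Egress and homing genes beyond the rule genes were higher in the gate, though not uniformly: 6 of 11 measured list members passed upward and 2 downward, and the median log2 ratio was 0.69. The rule genes S1pr1 (246 CPM in NK-depleted and 257 CPM in control gated cells; mm10 chr3:115710433-115715072, minus strand) and Klf2 (544 and 537 CPM; chr8:72319033-72321656, plus strand) are high by construction. Klf3, a Krüppel-like factor related to Klf2 (chr5:64803388-64832901, plus strand), stood at 135 CPM in NK-depleted and 179 CPM in control gated cells, against 19.6 and 29.5 CPM in the other cells, which is 6.86-fold (5.97 to 7.86) in the NK-depleted and 6.07-fold (5.5 to 6.69) in the control library. Ccr7, the chemokine receptor that guides cells into lymph nodes, stood at 129 and 140 CPM in gated cells, against 52.8 and 63.7 CPM in the other cells. The gated values of Klf3 and Ccr7 lay above those of the other cells in both libraries.

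S1pr4, another sphingosine 1-phosphate receptor of lymphocytes, was 1.77-fold (1.51 to 2.06) and 1.47-fold (1.28 to 1.67) higher in gated cells of the NK-depleted and the control library, at 98.2 and 85.7 CPM against 55.6 and 58.5 CPM. S1pr5, the receptor that NK cells and effector memory cells use to leave tissue, was rare, with 11 UMIs in each library's gated cells (6.43 and 4.14 CPM, against 0.421 and 0.453 CPM in the other cells). Itgb7, the beta chain of the integrin for gut homing, was 1.94-fold (1.70 to 2.20) and 2.15-fold (1.94 to 2.38) higher. Itgal, the alpha chain of LFA-1, went the other way, at 205 and 175 CPM in gated cells against 266 and 273 CPM in the other cells. Cd69, which opposes S1PR1 at the protein level, stood at 458 and 519 CPM in gated cells, against 249 and 311 CPM in the other cells. Egress transcripts and Cd69 transcripts were both above the rest of the library in the summed gated cells.

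Promoters of 4 of these genes are shown because KLF family factors bind CACCC boxes. The windows run from 250 bases before to 50 bases after the annotated start, in RefSeq on GRCm38.p6, 5' to 3' on the gene's strand, and capitals mark the motif CACCC or its reverse complement GGGTG. Of 27025 mouse promoters of the same length, 56.7% hold at least 1 match and 9.01% hold 3 or more.
Klf2 (chr8:72318812-72319111, plus strand): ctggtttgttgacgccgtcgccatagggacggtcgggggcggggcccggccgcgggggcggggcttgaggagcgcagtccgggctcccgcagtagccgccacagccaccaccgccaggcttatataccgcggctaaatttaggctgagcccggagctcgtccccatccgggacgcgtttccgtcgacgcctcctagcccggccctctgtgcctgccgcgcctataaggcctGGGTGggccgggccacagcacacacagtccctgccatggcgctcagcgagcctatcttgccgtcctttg
Klf3 (chr5:64803271-64803570, plus strand): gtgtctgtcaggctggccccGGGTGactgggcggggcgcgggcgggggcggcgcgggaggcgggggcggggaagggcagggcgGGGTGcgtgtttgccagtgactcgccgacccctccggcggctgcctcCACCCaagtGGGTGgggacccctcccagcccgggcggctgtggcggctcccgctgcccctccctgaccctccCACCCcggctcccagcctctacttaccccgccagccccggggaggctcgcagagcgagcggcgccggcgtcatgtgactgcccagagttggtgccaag
S1pr4 (chr10:81500088-81500387, minus strand): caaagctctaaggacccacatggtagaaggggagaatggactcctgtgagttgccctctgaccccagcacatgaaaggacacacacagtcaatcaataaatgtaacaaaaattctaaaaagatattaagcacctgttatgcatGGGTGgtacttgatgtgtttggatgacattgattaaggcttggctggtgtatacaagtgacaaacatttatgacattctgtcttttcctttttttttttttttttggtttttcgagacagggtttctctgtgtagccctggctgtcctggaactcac
Itgb7 (chr15:102231886-102232185, minus strand): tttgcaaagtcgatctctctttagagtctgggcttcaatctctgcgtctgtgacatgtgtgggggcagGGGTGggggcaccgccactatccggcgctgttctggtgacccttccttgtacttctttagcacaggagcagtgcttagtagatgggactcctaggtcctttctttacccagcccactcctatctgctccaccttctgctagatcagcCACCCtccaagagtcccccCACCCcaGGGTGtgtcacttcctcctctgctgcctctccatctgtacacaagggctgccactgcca
The Klf3 window holds 5 matches and the Itgb7 window 4, whereas the Klf2 and S1pr4 windows hold 1 each. Letters in a window show no binding. The windows of S1pr5 and of each of the 2 annotated starts of Gzmm, not printed, hold 2 matches each. A longer motif, CCACACCC, found in 3.57% of the mouse promoters, has no match in any of these windows. S1pr1 and Ccl5 are named only.

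**Figure D2:**
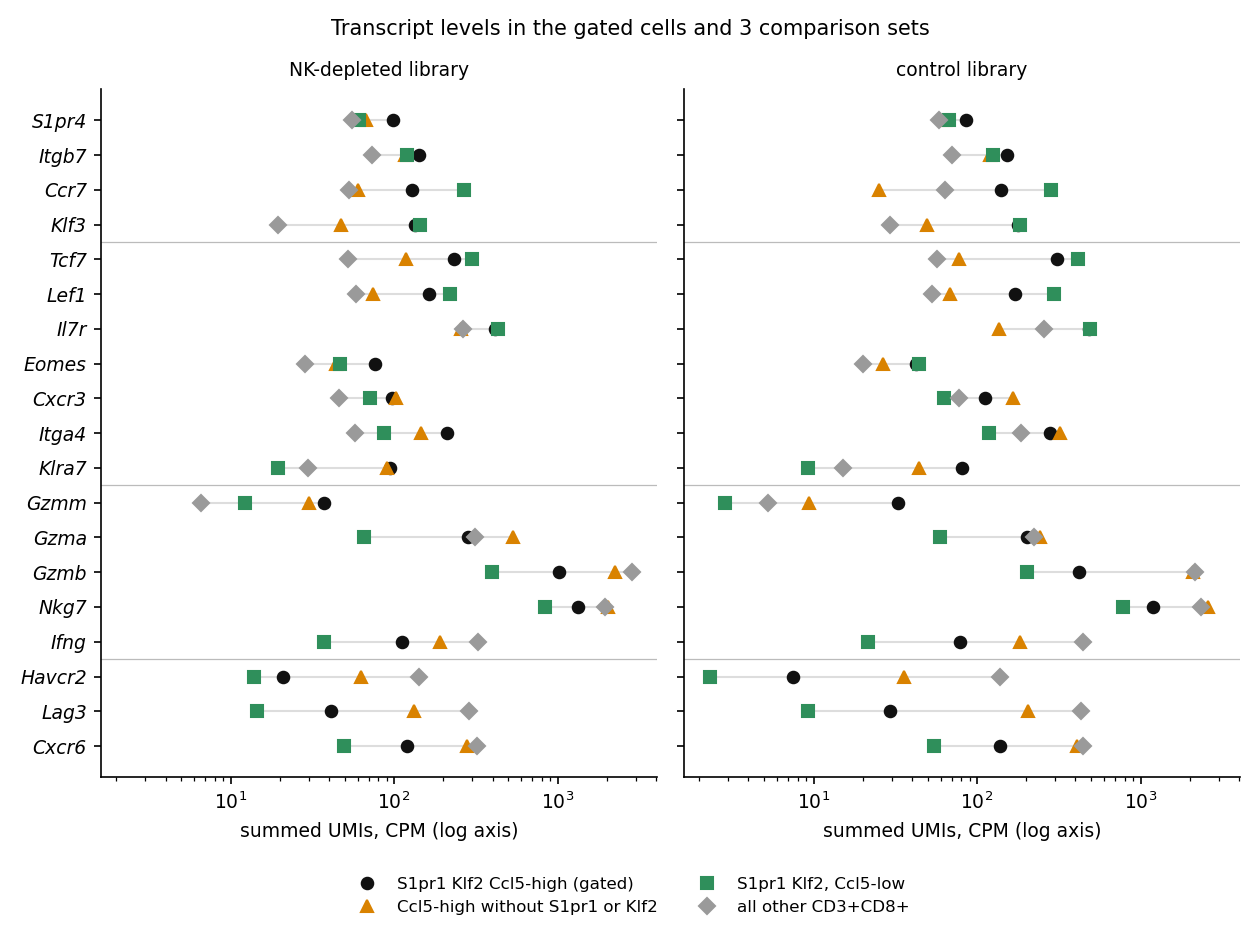
CPM (x axis, log scale) of 19 genes (rows, ordered by role) in gated cells and in 3 comparison sets, with the NK-depleted library left and the control library right; each marker is the sum over the cells of a set. For Tcf7 and Lef1 the gated cells lie between the Ccl5-low S1pr1+ Klf2+ cells and the Ccl5-high cells that lack S1pr1 or Klf2, and for Gzmb, Lag3 and Havcr2 they lie between the same sets in the opposite order.

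Memory and naive-associated genes were nearly all higher: 16 of 17 measured members stood higher in gated cells, none stood lower, and the median log2 ratio was 1.22. Tcf7 (chr11:52252371-52283014, minus strand), the transcription factor TCF1 of naive and memory T cells, stood at 231 CPM in NK-depleted and 309 CPM in control gated cells, against 52.5 and 56.6 CPM in the other cells, 4.40-fold (3.97 to 4.87) and 5.45-fold (5.06 to 5.87) higher. Lef1, its partner in naive and memory cells, stood at 163 and 170 CPM against 58.7 and 53.0 CPM. Il7r, the receptor for the survival cytokine IL-7, stood at 412 and 487 CPM against 264 and 256 CPM, and Bcl2, the survival factor it sustains, at 620 and 488 CPM against 353 and 259 CPM. Tcf7 was found in 73.1% of NK-depleted and 86.5% of control gated cells, against 30.5% and 26.7% of the other cells. With every cell thinned to 5500 UMIs the shares were 66% and 76.1% in gated cells and 20.4% and 18.8% in the other cells.

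Among the highest ratios were signalling genes less often used to define memory cells. Pde2a, a cyclic nucleotide phosphodiesterase (chr7:101421691-101512827, plus strand), stood at 74.9 and 88.0 CPM in NK-depleted and control gated cells, against 11.6 and 11.8 CPM in the other cells. Rasgrp2, the exchange factor that activates RAP1 and so integrins, was 3.60-fold (3.07 to 4.21) and 3.78-fold (3.32 to 4.29) higher, and Nsg2, a neuronal vesicle protein gene, was 5.18-fold (4.3 to 6.2) and 5.86-fold (5.04 to 6.79) higher. Cmah, the enzyme that makes the sialic acid Neu5Gc, stood at 132 CPM in both libraries' gated cells, against 26.1 and 27.7 CPM in the other cells. Fos, an immediate early gene, was also higher (242 and 239 CPM, against 74.6 and 84.8 CPM), as were 7 of 11 measured genes of heat shock and tissue dissociation, with a median log2 ratio of 0.69. The part of tissue handling in these values was not tested.

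Effector, exhaustion, division and glycolysis genes lay on the low side. Of the inhibitory receptor and exhaustion list, 8 of 13 measured members were lower in gated cells and none higher, with a median log2 ratio of -1.56. The rule removed every cell with a Pdcd1 UMI, whereas 61.1% of the NK-depleted and 69.9% of the control other cells held one. Lag3, an inhibitory receptor, stood at 40.9 and 29.3 CPM in NK-depleted and control gated cells, against 286 and 435 CPM in the other cells, and Havcr2, which encodes TIM-3, at 21.1 and 7.52 CPM against 141 and 137 CPM. Gzmb, the main serine protease of cytotoxic granules (chr14:56258838-56262260, minus strand), stood at 1018 and 422 CPM against 2836 and 2148 CPM, and 12 of 17 measured granule genes were lower and 1, the label marker Gzmm, higher. Gzmm, granzyme M (chr10:79689020-79695261, plus strand), stood at 37.4 and 32.7 CPM against 6.60 and 5.30 CPM but was found in only 38 NK-depleted and 43 control gated cells. All 14 measured cell cycle genes and 13 of 14 glycolysis genes were lower, the gate having removed cells with Pdcd1, Mki67 or Top2a. The same lists are given below against cells that also lack these genes. Gapdh, a glycolytic enzyme, stood at 885 and 622 CPM against 2267 and 1854 CPM. Cxcr3, the receptor for interferon-induced chemokines, was higher (97.7 and 112 CPM, against 46.1 and 77.2 CPM), whereas the activation marker Cd44 was lower in gated cells (85.4 and 88.4 CPM) than in the others (128 and 141 CPM).

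**Figure D3:**
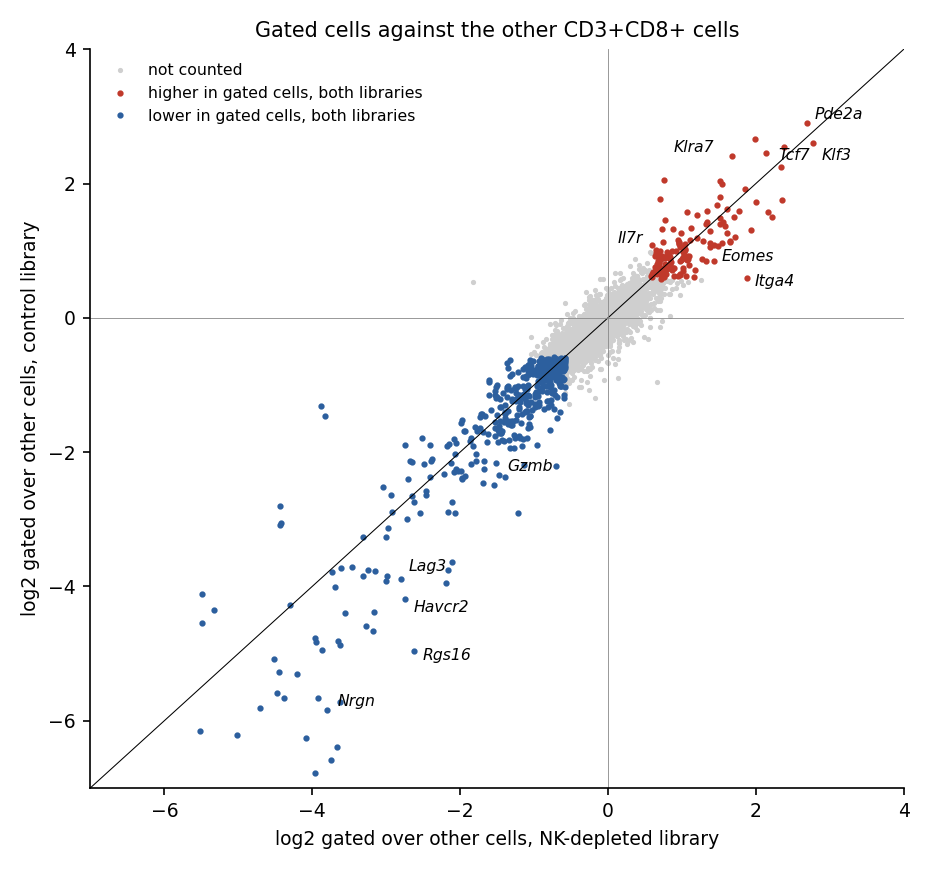
Log2 ratio of gated over other CD3+CD8+ cells in the NK-depleted library (x axis) against the same ratio in the control library (y axis) for 3212 genes, with the diagonal drawn and some genes named. Memory and egress genes lie at the upper right and division, inhibitory receptor and granule genes at the lower left; 141 genes are higher and 430 lower in both libraries.

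Fewer genes separated gated cells from the other CD3+CD8+ cells without a UMI of Pdcd1, Mki67 or Top2a, called matched cells here. Matched cells can still carry activation transcripts. Among those with at least 10 Ccl5 UMIs, Lag3 was found in 29.9% of 301 NK-depleted and 57.8% of 644 control cells. Ifng was found in 45.2% and 43% of them. Against the other CD3+CD8+ cells that also lacked Pdcd1, Mki67 and Top2a (1438 NK-depleted and 1262 control cells), whose median depth was 8234.5 and 8044.5 UMIs, 24 of 2960 genes (0.811%) were higher in gated cells and 95 (3.21%) lower. The 24 were led by Rasgrp2, at 98.2 and 99.3 CPM in NK-depleted and control gated cells against 33.8 and 40.7 CPM. Klf3 (55.4 and 79.1 CPM in the matched cells) and Pde2a (39.5 and 37.8 CPM in the matched cells) were also among the leading genes. The 24 held Tcf7, Klra7, the adhesion and signalling receptor gene Slamf6 and the transcription factor gene Rora as well. At list level 4.38% of 7758 genes were higher and 8.74% lower. Of the memory and naive genes 9 of 17 were higher and 1 lower, and 0 of 10 measured cell cycle genes passed. Lower in gated cells were 9 of 13 exhaustion genes (median log2 ratio -0.62), 7 of 17 granule genes (-0.39) and 6 of 14 glycolysis genes (-0.42). In these lists, 2 granule genes were higher and no exhaustion or glycolysis gene. Type I interferon response genes were mostly lower: 18 of 21 were lower and none higher, with a median log2 ratio of -0.73 against -0.04 over all genes. Isg15, an interferon-induced ubiquitin-like protein, stood at 347 and 455 CPM in gated cells against 649 and 981 CPM in the matched cells. Ifit3, an interferon-induced RNA-binding protein, stood at 235 and 430 CPM against 424 and 722 CPM. The matched cells also carried dendritic cell marker UMIs (327 and 886 CPM in sum, against 90.6 and 222 CPM in gated cells). The part of these barcodes in the lower genes was not tested.

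Neighbouring cell sets were set beside the gate. The first, which differs in the Ccl5 threshold, holds S1pr1+ Klf2+ cells with at most 2 Ccl5 UMIs and no Pdcd1, Mki67 or Top2a. Against these, 90 of 2856 genes (3.15%) were higher in gated cells and 16 (0.56%) lower. At list level 11.6% of 7741 genes were higher and 3.46% lower. Memory effector receptors were higher for 14 of 18 members (median log2 ratio 1.18), virtual or innate-like memory genes for 9 of 12 (2.06), S100 and annexin genes for 13 of 15 (0.67) and granule genes for 10 of 15 (0.63), against a median of 0.11 over all genes. Memory and naive genes went the other way, with 11 of 17 lower and none higher. Egress and homing genes split, with 3 of 11 higher and 3 lower (0.07). Inhibitory receptor and exhaustion genes were higher in gated than in Ccl5-low cells for 8 of 13 members and lower for none (0.91). Tissue residency genes were higher for 7 of 10 and lower for 1 (1.16). Type I interferon response genes were higher for 3 of 21 and lower for none (0.29). Dapl1, a gene of naive and central memory CD8 T cells, stood at 90.6 and 80.1 CPM in NK-depleted and control gated cells against 281 and 319 CPM in the Ccl5-low cells, and Igfbp4, a gene of naive T cells, at 12.3 and 13.9 CPM against 65.3 and 115 CPM. Cx3cr1, the fractalkine receptor of effector memory cells, stood at 29.8 and 31.6 CPM in gated cells against 0.558 and 1.73 CPM in the Ccl5-low cells.

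The other set holds cells with at least 10 Ccl5 UMIs, no Pdcd1, Mki67 or Top2a, and no UMI of S1pr1, of Klf2 or of either. S1pr1 was found in 45 and Klf2 in 123 of its 301 NK-depleted cells, and in 70 and 129 of its 644 control cells, and no cell held both. Against these 301 NK-depleted and 644 control cells, 35 of 3109 genes (1.13%) were higher in gated cells and 174 (5.6%) lower; at list level 6.08% of 7849 genes were higher and 12.7% lower. All 21 measured type I interferon response genes were lower in gated cells, with a median log2 ratio of -0.97 against -0.08 over all genes, and 13 of 17 memory and naive genes were higher (1.01). Ifit3 stood at 235 and 430 CPM in gated cells against 520 and 1029 CPM, a lower level than in the cells that share the Ccl5 threshold but lack an egress transcript. Granule genes were lower for 13 of 17 members and inhibitory receptors for 10 of 13. Memory effector receptors were higher for 1 of 18 and lower for 3 (-0.10). Gzma, granzyme A, stood at 282 and 202 CPM in NK-depleted and control gated cells against 532 and 242 CPM. Absence of a UMI is not absence of expression at a median of 7433 and 7394.5 UMIs per cell, so this set is defined by detection.

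Within the gate, Itga4, Gzma, S100a4 and Cx3cr1, chosen after their values were seen, were higher in the cells with the most Ccl5. The cells fell into classes of 10 to 24 Ccl5 UMIs (71 NK-depleted and 74 control cells), 25 to 49 (49 and 73) and 50 or more (55 and 97), with median depths of 9034, 9148 and 7658 UMIs in NK-depleted and 9951.5, 9548 and 9938 UMIs in control cells. Itga4, the alpha chain of the integrin VLA-4 (chr2:79255426-79333123, plus strand), stood at 108, 197 and 364 CPM across these classes in NK-depleted cells and at 90.1, 192 and 480 CPM in control cells. Gzma (chr13:113093825-113100981, minus strand) stood at 53.3, 253 and 624 CPM in NK-depleted cells and at 164, 104 and 303 CPM in control cells, so its order over the lower classes differed between the libraries. S100a4, a calcium-binding protein of memory and effector cells, stood at 573, 674 and 1109 CPM in NK-depleted cells and at 307, 217 and 961 CPM in control cells. Cx3cr1 (chr9:119901616-120069879, minus strand) stood at 5.47, 8.86 and 81.5 CPM in NK-depleted cells and at 15.7, 9.81 and 59.4 CPM in control cells. All 4 genes were highest in the class of 50 or more Ccl5 UMIs in both libraries.

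Tcf7 stood at 257, 244 and 184 CPM in NK-depleted cells and at 397, 329 and 231 CPM in control cells. Il7r stood at 416, 425 and 394 CPM in NK-depleted cells and at 534, 539 and 413 CPM in control cells. Tcf7 was lowest at the highest Ccl5 in both libraries, while Il7r stayed within a narrow range in the NK-depleted library. Klf2 stood at 554, 510 and 559 CPM in NK-depleted cells and at 585, 566 and 480 CPM in control cells. Klf3 was highest in the top class, at 94.3, 148 and 178 CPM in NK-depleted cells and at 163, 141 and 219 CPM in control cells. Gzmm was also highest there, at 12.3, 46.5 and 64.5 CPM in NK-depleted cells and at 18.3, 25.7 and 48.3 CPM in control cells. The classes are cut from a gene of the rule, so they order cells by Ccl5 and are not cell types.

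**Figure D4:**
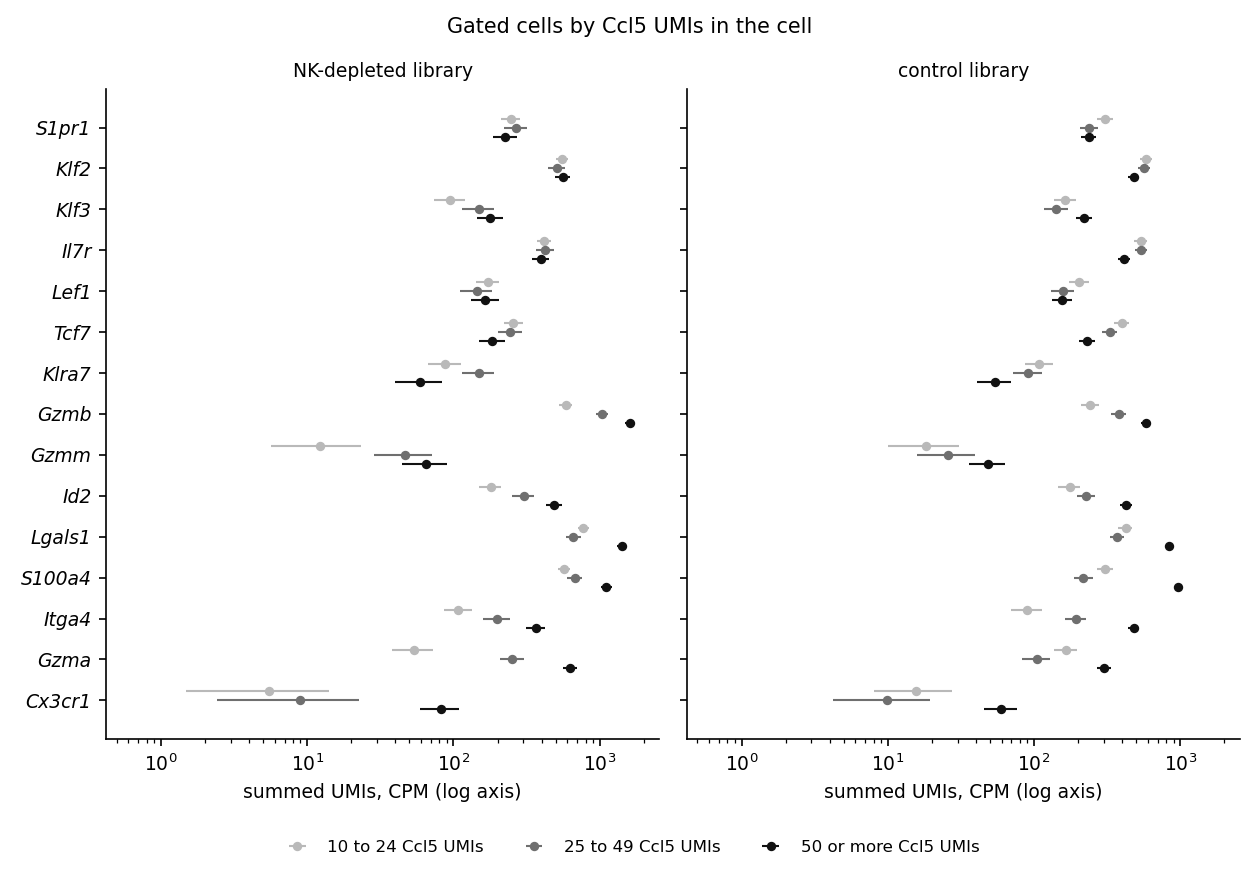
CPM (x axis, log scale) of 15 genes (rows) in gated cells with 10 to 24, 25 to 49 and 50 or more Ccl5 UMIs (light to dark points, top to bottom in each row), with the NK-depleted library left and the control library right and bars for exact Poisson 95% intervals of counting error. Itga4, Gzma, S100a4 and Cx3cr1 are highest at 50 or more Ccl5 UMIs in both libraries, and Tcf7 is lowest there.

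Another division within the gate was by the Ly49 family (Klra genes), inhibitory and activating receptors for MHC class I that mark NK cells and a virtual or innate-like memory fraction of CD8 T cells. At least 1 UMI of any of 11 Ly49 genes was found in 34.3% (27.3 to 41.8) of NK-depleted and 32.4% (26.5 to 38.6) of control gated cells, against 23.4% and 10.0% of the other CD3+CD8+ cells and 17.3% and 8.24% of the Ccl5-low S1pr1+ Klf2+ cells. In the Ccl5-high cells that lacked S1pr1 or Klf2 the share was 27.6% (22.6 to 33) in the NK-depleted and 11% (8.71 to 13.7) in the control library. With cells thinned to 5500 UMIs the shares were 30.0% and 28.3% in gated cells, 17.6% and 6.88% in the other cells, 14.4% and 5.14% in the Ccl5-low cells and 29.1% and 12% in the Ccl5-high cells that lacked S1pr1 or Klf2. In the NK-depleted library the gated cells and these Ccl5-high cells thus had close shares, while in the control library the gated share was higher; the difference was not tested. Klra7, which encodes Ly49G (chr6:130218605-130233322, minus strand), stood at 94.7 and 80.9 CPM in NK-depleted and control gated cells, against 29.6 and 15.2 CPM in the other cells. These genes are near-identical copies whose reads the authors' counting could split or drop, so values of single members are uncertain. Ncr1, a gene of NK cells, was at 0 in the gate.

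Gated cells with and without a Ly49 UMI were set side by side, for genes chosen after their values were seen. Cells with a Ly49 UMI (60 and 79) held less Gzma than cells without (73.5 and 114 CPM, against 415 and 247 CPM). Fcer1g, a signalling adaptor of NK cells and innate-like T cells, stood at 163 and 131 CPM in cells with a Ly49 UMI and at 3.83 and 17.6 CPM in cells without. Cd8b1, the CD8 beta chain, was lower with Ly49, at 373 and 391 CPM against 967 and 1007 CPM, and so was Dapl1 (37.5 and 22.2 CPM, against 125 and 110 CPM). UMIs of gamma constant genes were found in 24% of NK-depleted and 23% of control gated cells, against 15.2% and 9.84% of the other cells; whether the Ly49+ cells include T cells that are not conventional CD8 alpha beta cells was not tested. V segments of the beta chain reached 2 UMIs in only 8 NK-depleted and 16 control gated cells, too few to describe clonality.

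Between the libraries, Gzmb and Eomes were higher and Tcf7 and most type I interferon response genes lower in NK-depleted gated cells. At 1.5-fold and 50 CPM, 35 of 2731 genes (1.28%) were higher in NK-depleted gated cells and 55 (2.01%) lower; 82 of the 90 pointed the same way in the other CD3+CD8+ cells of the same libraries, 23 of them at 1.5-fold. The split depended on scaling: TMM factors gave 65 higher and 17 lower, and median-of-ratios factors 51 and 29; these factors move the median log2 ratio of NK-depleted over control by 0.13 and 0.08. The rule requires S1pr1 and Klf2 UMIs in every gated cell, so their ratios of NK-depleted over control, 0.96 (0.85 to 1.08) and 1.01 (0.93 to 1.1), are given as description only. Lef1, which the rule did not use, had a ratio of 0.96 (0.82 to 1.12). Tcf7 was lower, at 231 CPM in NK-depleted against 309 CPM in control gated cells, a ratio of 0.75 (0.66 to 0.84). At list level 11.1% of 7442 genes were higher and 21.3% lower in NK-depleted gated cells, and 2 of 11 egress genes were higher and 1 lower. Itga4 was also lower (211 against 279 CPM), with a wider gap in the other cells (57.4 against 185 CPM).

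Several genes of granules, costimulation and glycolysis were higher in NK-depleted gated cells, while the early T cell receptor response list had 4 of 17 members higher, 3 lower and a median log2 ratio of 0.02. Gzmb stood at 1018 CPM in NK-depleted and 422 CPM in control gated cells, 2.41-fold (2.24 to 2.60), while the other cells had 2836 and 2148 CPM and the Ccl5-low S1pr1+ Klf2+ cells 397 and 201 CPM. Macrophage-marked barcodes without CD3 held 372 and 298 CPM of Gzmb, and the part of free RNA in this ratio was not tested. Eomes, a transcription factor of memory and cytotoxic cells (chr9:118478212-118486132, plus strand), stood at 76.6 and 42.5 CPM, 1.80-fold (1.39 to 2.34), and at 28.5 and 20 CPM in the other cells. Tnfrsf9, the costimulatory receptor 4-1BB, stood at 71.3 and 20.3 CPM, 3.51-fold (2.53 to 4.93), from 39 and 37 cells, with 22% of the NK-depleted UMIs in 1 cell. Tpi1, a glycolytic enzyme, was 2.48-fold (1.96 to 3.15) higher. Of the glycolysis list, 11 of 14 members were higher and none lower in NK-depleted gated cells; its median log2 ratio was 0.49 in gated cells and 0.27 in the other cells, against -0.06 over all genes in the gate. Granule genes were higher for 7 of 15 members, a count that includes Gzmf, and lower by the list fold for 1, the granzyme gene Gzmk, whose ratio of 0.78 (0.57 to 1.07) has an interval that includes 1; the median log2 ratio was 0.20. Of the S100 and annexin genes, 6 of 15 were higher.

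Type I interferon response genes were mostly lower in NK-depleted gated cells. Of that list, 12 of 21 members were lower and none higher, with a median log2 ratio of -0.39 in gated cells and -0.49 in the other cells. Not all interferon-induced genes shared this. Of the interferon gamma response list 5 of 17 were lower and none higher (median log2 ratio -0.23). Of the Ifitm membrane protein genes 3 of 4 were higher and none lower. Their median log2 ratio was 0.61 in gated cells and 0.90 in the other cells. Macrophage-marked barcodes without CD3 held 900 and 682 CPM of Ifitm2 and 1394 and 1685 CPM of Ifitm3. The part of free RNA in the Ifitm ratios was not tested. Ifit3 stood at 235 CPM in NK-depleted and 430 CPM in control gated cells, a ratio of 0.55 (0.49 to 0.61), and at 247 and 497 CPM in the other cells. Iigp1, an interferon-inducible GTPase, stood at 40.9 and 93.3 CPM, a ratio of 0.44 (0.33 to 0.57), and at 44.0 and 115 CPM in the other cells. The S1pr1+ Klf2+ cells with at most 2 Ccl5 UMIs had 248 and 249 CPM of Ifit3; the difference between the sets was not tested. Gzmf, whose UMIs were found in 49.1% of NK-depleted and 7.0% of control gated cells, was found in 64.9% and 9.9% of those Ccl5-low cells as well and in macrophage-marked barcodes without CD3 (164 and 78.4 CPM, from 19 and 10 UMIs). Its share of gated cells did not exceed that of the Ccl5-low cells, and how much of it is free RNA was not tested.

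**Figure D5:**
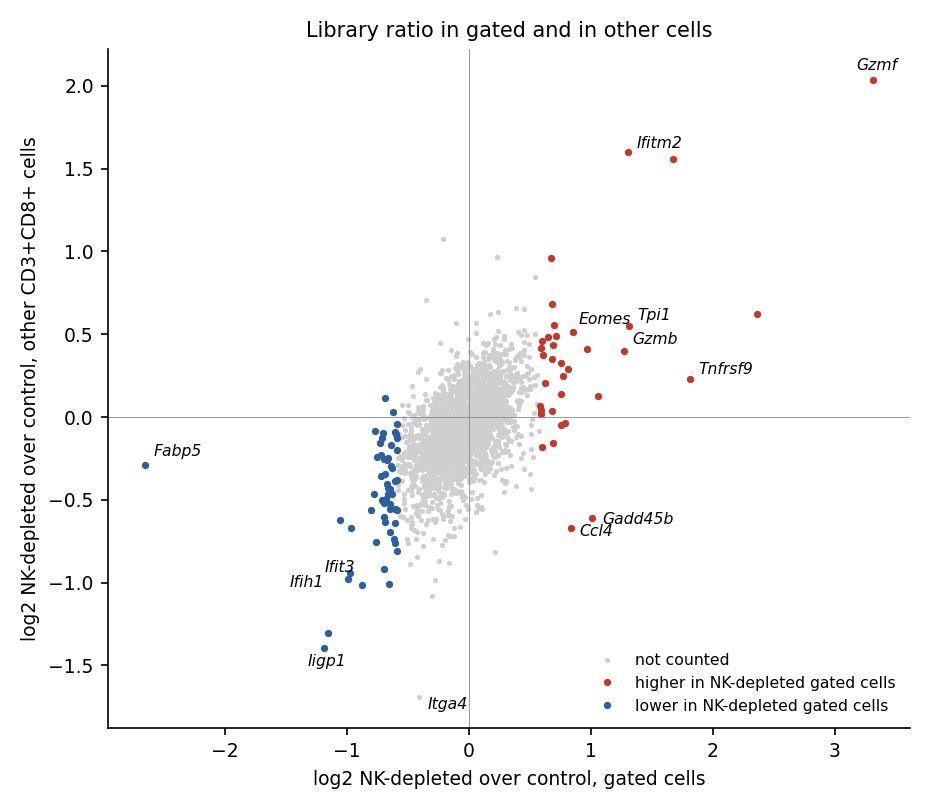
Log2 ratio of NK-depleted over control in gated cells (x axis) against the same ratio in the other CD3+CD8+ cells (y axis), 1 point per gene; coloured points are the 35 genes higher and 55 genes lower in NK-depleted gated cells. Gzmb, Tpi1 and Tnfrsf9 lie to the right, Ifit3 and Iigp1 to the lower left, and Gadd45b and Ccl4 are higher in gated but lower in the other cells of the NK-depleted library; without gated cells that hold a UMI of a Ly49 gene, Klrb1c, Trdc or Ncr1, Ccl4 has a log2 ratio of -0.24.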

How the data were processed

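The authors deposited, for each of 2 libraries, a matrix of raw UMI counts per gene and barcode; per the file headers it was written by Cell Ranger, and per the submitters' processing notes the reads were processed with Cell Ranger 6.1.2 and Seurat 4.0.6 on mm10. Cell calling was done before deposit, and intronic reads, strand and multi-mapped reads are not described in the sources used here. Gate, gene lists and named genes were chosen with earlier results of these data known.

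From the counts, UMIs were summed over the cells of each set and divided by the set's total (CPM). Ratios of 2 sums have exact conditional binomial intervals, and shares of cells exact Clopper-Pearson intervals, at 95%. PCR and cell-to-cell variation, tumours and mice are not covered. Genes were counted at 1.5-fold and 50 CPM, and list members at a log2 ratio of 0.32 and 10 CPM; both libraries had to pass for comparisons of cell sets. For shares, cells were also thinned to 5500 UMIs, leaving out shallower cells (25 NK-depleted and 14 control gated cells). No cells were removed as doublets: Scrublet called 0 of 8353 and 1 of 7163 cells and so did not work, and leaving out the 8% with the highest scores was an alternative.

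Named genes were the rule genes and label markers, the genes with the highest and lowest ratios in each comparison, and up to 4 members of each list; other genes named in the text were chosen from the lists after their values were seen. The counting was tested on simulated data with known changes. Alternatives are in the closing section. Software was Python 3.11.15, numpy 2.4.6, scipy 1.17.1, pandas 2.3.3, scanpy 1.11.5 and edgeR 4.0.16 (TMM factors only). Gene positions are from GENCODE M21 (GRCm38, mm10), promoters from RefSeq on GRCm38.p6. Results for some items are not reported here.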

Additional observations from a re-analysis of the deposited data

Results flagged for a closer look

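Flagged here are 4 genes whose log2 ratio of NK-depleted over control was above 0 in gated cells and below 0 in the other CD3+CD8+ cells. They are not a full list of genes with opposite signs. Of the 90 genes counted between the libraries, 82 pointed the same way in both sets of cells. The difference between the ratios was not tested. Ccl4, a chemokine of activated T cells, had a log2 ratio of 0.84 in gated cells and -0.67 in the other cells, at 355 CPM in NK-depleted and 199 CPM in control gated cells, and 1 cell held 35% of the NK-depleted UMIs. Without cells that hold a UMI of a Ly49 gene, Klrb1c, Trdc or Ncr1, the log2 ratio of Ccl4 in gated cells was -0.24. Gadd45b, a stress and activation response gene, had 1.01 and -0.61, at 101 and 50 CPM in gated cells. Rgs16, a regulator of G protein signalling, had 1.78 and -0.57, from 53 UMIs in NK-depleted and 24 UMIs in control gated cells. Lag3 had 0.48 and -0.61, at 40.9 CPM in NK-depleted and 29.3 CPM in control gated cells.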

How the results depend on the processing

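The share of gated cells was lower in the NK-depleted than in the control library under every alternative tried. It was 2.78% against 4.17% with a Ccl5 minimum of 5 UMIs, 1.46% against 2.83% with 20, 1.37% against 2.73% with cells thinned before gating, and 2.63% against 4.26% without cells holding 3 UMIs of macrophage, dendritic or B cell markers. Counts between libraries, higher and lower in NK-depleted gated cells, were 21 and 32 with the Ccl5 minimum of 5, 98 and 206 with the thinned gate, 62 and 149 with both sets thinned, and 56 and 92 without the marker cells; with the Ccl5 minimum of 20, 86 were lower. Of the 35 higher and 55 lower genes of the main setting, 19 and 24 were counted again with the thinned gate. With both sets thinned 23 and 38 of them were counted again, and without the marker cells 23 and 27. TMM gave 65 and 17, and median-of-ratios factors gave 29 lower. Minimum levels of 20 and 100 CPM gave 115 and 258, and 13 and 17, and a fold of 2 gave 9 and 4. Between gated and other cells the same settings gave 289 higher and 770 lower, 80 and 242, and 47 and 215, and the cells without Pdcd1, Mki67 and Top2a gave 24 and 95.

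Chosen after seeing the data were settings without the marker cells but with Ighm not counted (shares 2.92% against 4.61%, 90 genes higher than in the other cells, 84 lower between libraries), and without cells with a UMI of a Ly49 gene, Klrb1c, Trdc or Ncr1 (1.81% against 2.52%, 92 lower between libraries). Without those Ly49 and related cells, the log2 library ratio of Ccl4 was -0.24. The virtual memory list's median over the other cells was -0.65, against 0.43 in the main setting. That list holds the Ly49 genes Klra6 and Klra7, whose UMIs this setting removes by construction, so the change of its median is not a separate result. Signs also turned against the cells without Pdcd1, Mki67 and Top2a, at 0.56 for Ccl4 in the NK-depleted library and, in control, 1.248 for Cx3cr1, 0.0566 for Gadd45b and 0.0155 for S100a4, with 0.0924 for the median of the early T cell receptor list. With the thinned gate Cx3cr1 in control was 0.0144. With 50 CPM for lists, the early T cell receptor median was 0.34 and the cell cycle median between libraries -0.0669. The cause was not tested, apart from fewer genes or cells by construction. No paired analysis was possible because each group has 1 library and the labels carry no replicate numbers. Gated cells are few and at most 2659050 UMIs deep in sum, so genes under 10 CPM rest on a few cells.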

Other observations

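Further lists gave mixed values in gated over other CD3+CD8+ cells, where 10.9% of genes were higher and 24.6% lower. Memory effector receptors were higher for 4 of 18 members and lower for 6 (median log2 ratio -0.11). S100 and annexin genes were lower for 10 of 16 and higher for none (-0.65). Virtual or innate-like memory genes were higher for 5 of 12 and lower for 1, with medians of -0.03 in the NK-depleted and 0.66 in the control library. Tissue residency genes split, 3 of 11 upward and 6 downward (median log2 ratio -0.64); of the T cell transcription factors 7 of 19 were higher and 4 lower (0.22), of the quiescence genes 4 of 12 were higher and 1 lower (0.30), and of the oxidative phosphorylation genes 7 of 14 were lower and none higher (-0.41). Itgae, the CD103 integrin chain that holds T cells in epithelia, stood at 4.68 CPM in NK-depleted and 15.4 CPM in control gated cells. Tox, a transcription factor of exhausted cells, stood at 26.3 and 46.6 CPM in gated cells, against 24.6 and 74.8 CPM in the other cells, while the remaining exhaustion genes named above were lower in gated cells of both libraries. Cxcr6, a chemokine receptor of resident cells, stood at 119 and 137 CPM in gated cells against 321 and 443 CPM in the other cells.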
